A study of Mus musculus with 6 samples.

Results

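A group of 36 interferon-stimulated genes was followed by RNA-seq after knockdown of CTCF, a protein that folds chromatin into loops and domains, in mouse cells labelled female germline stem cells (FGSCs). The members were given as a list of gene symbols, and all 36 were found among the 24732 gene symbols with an expression value. They are the PARP, Deltex, TRIM and Schlafen genes of the interferon response, the proteins of nuclear bodies, and further genes that act in ISG15 conjugation, nucleotide supply, RNA sensing, cell death and signalling. The 3 control samples and the 3 shCTCF samples were labelled FGSCs, of strain C57BL/6 at more than 20 passages. The paper's methods describe FGSCs isolated from the ovaries of neonatal mice that carried Ddx4-Cre and mT/mG. Both groups were grown on mitotically inactivated STO fibroblasts, a mouse embryonic feeder line, in medium with LIF, EGF, bFGF and GDNF. The shCTCF cells had been infected with a lentivirus that carried a short hairpin RNA against Ctcf and then selected with puromycin. The labels and methods do not say which virus or selection, if any, the controls had received, so an effect of infection or selection and an effect of CTCF loss cannot be told apart here. Nothing in the labels says that the samples came from separate cultures, and the p-values therefore measure only the spread between these samples.

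Interferons are secreted signals of infection. Type I and type III interferons act through their receptors and JAK kinases on STAT proteins, which join IRF9 in a complex that binds the interferon-stimulated response element, a DNA motif with a pair of GAAA repeats. Interferon gamma has its own receptor, and its signal ends on the gamma-activated site, TTCNNNGAA. Interferon regulatory factors such as IRF1, IRF3 and IRF7 bind GAAA repeats as well, and foreign or misplaced nucleic acids reach them without any interferon. The genes switched on in this way restrict viruses at many steps, and several of them are also transcribed at a low level in cells that have met no interferon.

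To show what the members have in common in sequence, their promoters were read from RefSeq (assembly GRCm38.p6), from 250 bases before to 50 bases after each annotated start. A promoter was given for 29 of the 36 members, 40 promoters in all. The core of the response element was searched as GAAA, any 2 bases and GAAA, on either strand (on the opposite strand it reads TTTC, any 2 bases and TTTC), and overlapping matches were kept. This GAAA pair was found for 8 of these 29 members (27.6%), compared with 3.99% of the 27025 genes with a promoter. The 8 were Ddx60, Trim21, Trim30a, Slfn5, Slfn8, Slfn9, Shisa5 and Lgals9. The letters TTCNNNGAA, which read the same on both strands, were found for 3 members (10.3%), namely Samhd1, Ifi35 and Shisa5, compared with 9.55% of all genes. In Shisa5 the matches of the motifs overlapped. For 19 members neither motif occurred in the window, which says only that these letters were not within these 300 bases. The promoters of Ddx60, Trim21 and Lgals3bp are printed whole, with the GAAA pairs in capitals, because Ddx60 and Trim21 carried repeated matches and Lgals3bp, which rose from a low level, carried none.
Ddx60, chr8:61927837-61928136, + strand: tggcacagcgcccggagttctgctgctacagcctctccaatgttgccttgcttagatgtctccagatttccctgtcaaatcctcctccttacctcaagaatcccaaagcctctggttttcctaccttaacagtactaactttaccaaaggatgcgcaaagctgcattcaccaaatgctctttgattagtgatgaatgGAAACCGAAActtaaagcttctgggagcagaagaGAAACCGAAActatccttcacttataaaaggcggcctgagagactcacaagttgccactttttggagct
Trim21, chr7:102565433-102565732, - strand: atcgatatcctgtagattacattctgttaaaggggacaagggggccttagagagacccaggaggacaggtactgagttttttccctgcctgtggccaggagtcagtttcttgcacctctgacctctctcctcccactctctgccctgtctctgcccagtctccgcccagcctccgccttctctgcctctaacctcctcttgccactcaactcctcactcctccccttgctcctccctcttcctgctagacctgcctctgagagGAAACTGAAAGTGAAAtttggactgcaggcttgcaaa
Lgals3bp, chr11:118401910-118402209, - strand: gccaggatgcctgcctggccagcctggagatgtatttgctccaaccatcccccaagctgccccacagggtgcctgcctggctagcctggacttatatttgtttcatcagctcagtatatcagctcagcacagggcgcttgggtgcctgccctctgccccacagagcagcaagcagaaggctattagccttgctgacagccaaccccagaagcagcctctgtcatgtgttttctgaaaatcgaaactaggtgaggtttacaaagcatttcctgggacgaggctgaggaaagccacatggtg

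Counted from 1 at the start base, with -1 before it, the matches of Ddx60 began at -53 and -19, and both read GAAACCGAAA on the strand of the gene. In Trim21 a pair of overlapping matches formed a run of 16 bases that began at 14. The sites of the other 6 members with a match are shown on the strand that reads GAAA, each with up to 10 bases on either side, and the positions given are those of the capitals, which mark the GAAA pair. Slfn8 and Slfn9, neighbours within the Schlafen cluster, had the same core, GAAAACGAAA, in nearly the same surroundings.
Slfn8, chr11:83020849-83020858: tgcttttgggGAAAACGAAActgctcaaat
Slfn9, chr11:82991866-82991875: ttgtttttggGAAAACGAAActgctcggat
Slfn5, chr11:82951947-82951956: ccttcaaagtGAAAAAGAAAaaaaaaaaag
Trim30a, upstream of its start, chr7:104465220-104465229: caggaactgaGAAAAAGAAActaaagaact
Trim30a, downstream of another start, chr7:104446114-104446123: caggaactgaGAAAAAGAAActaaaaacaa
Lgals9, upstream of the start, chr11:78984970-78984979: agtgtctagaGAAAAAGAAAgctgatgtca
Lgals9, downstream of the start, chr11:78984900-78984909: gctgagctagGAAACAGAAAccacagctat
Shisa5, chr9:109054898-109054907: ctttcaaaGAAAAGGAAAtcgaatctta

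The GAAA pair was followed directly by a C in 5 of the 8 members. Over all 29 members that was 17.2%, compared with 0.944% of all genes. The members' promoters held 13 matches, or 12 distinct ones, since that of Slfn8 lay in both of its promoters and was counted from each start. They began between -155 and 33, with a median of -36, and 7 of the 13 began within the 150 bases before the start. These matches are descriptions of the reference sequence. Binding was not measured at them here.

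**Figure D1:**
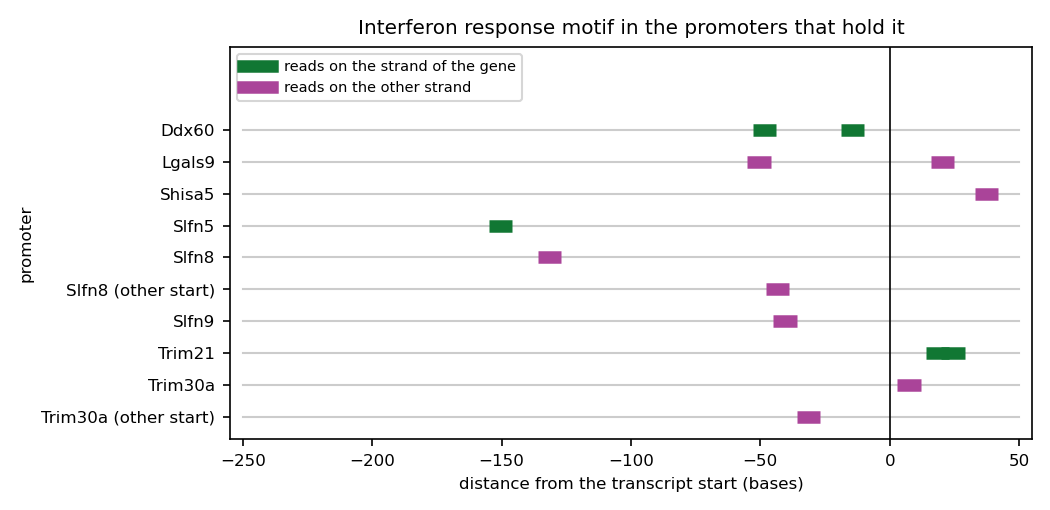
Position of each GAAA pair, in bases from the annotated start site (x axis), in the 10 RefSeq promoters of the 8 members that hold it (y axis), with green bars for pairs that read on the strand of the gene and purple bars for the other strand. The pairs begin between -155 and 33.

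The targeted mRNA was low in each sample labelled shCTCF. Ctcf had 58.2, 56.1 and 53.5 FPKM (fragments scaled to the length of the transcript and to the number of mapped fragments) in the controls and 0.74, 0.55 and 0.629 FPKM after knockdown, so the groups were far apart. Its log2 fold change was -5.12 ± 0.09 (SE), with a limma adjusted p of 1.1e-08. An exact two-sided permutation test gave p = 0.1, the smallest value that 3 against 3 samples allow. In the counts Ctcf had 0 fragments in every sample, controls included, so this check rests on FPKM alone. The libraries held between 1686052 and 7044272 assigned fragments. Control replicate 2 was the smallest, and 3 counts, taken as the smallest detected value, were 1.779 CPM (counts scaled to the library total) in it and 0.426 to 0.564 CPM in the others. Counting intervals and this floor cover counting error only.

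The main comparison asked whether the members changed after knockdown of CTCF. The members rose almost throughout. Of the 21 members with a mean of at least 1 FPKM in the controls, all 21 were higher in the shCTCF samples, 19 of them by at least 2-fold, and none was lower. Their log2 fold changes, all given here on the log2(FPKM + 1) scale unless counts are named, ran from 0.75 for Pml to 4.49 for Slfn2, with a median of 2.23. The median of all 9976 genes tested was -0.17. Across all these genes 28.8% were higher at an adjusted p under 0.05 in limma, 44.2% were lower, and 11.3% were higher by at least 2-fold. Since genes that are silent in the controls enter the test only when they are high after knockdown, the test was also run on the 9584 genes with a control mean of at least 1 FPKM. There 26.2% of all genes were higher and 8.69% were higher by at least 2-fold, and the 21 members were called as before.

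The other 15 members were at less than 1 FPKM in the controls. Of these, 10 passed the filter on the mean of all samples, through their level after knockdown, and were called higher. The remaining 5, Slfn1, Cmpk2, Ddx60, Tor3a and Ifi27l2a, were too low to be tested on FPKM. Without any threshold of level or test, 33 of the 36 members had all shCTCF samples above all controls, and the exceptions were Tor3a, Cmpk2 and Ifi27l2a. The same held for 17.3% of all gene symbols and for 30.8% of the 9976 genes tested. The log2 scale with 1 FPKM added understates the change of low genes, so ratios of group means are given for many members in which each control was above 0 FPKM.

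**Figure D2:**
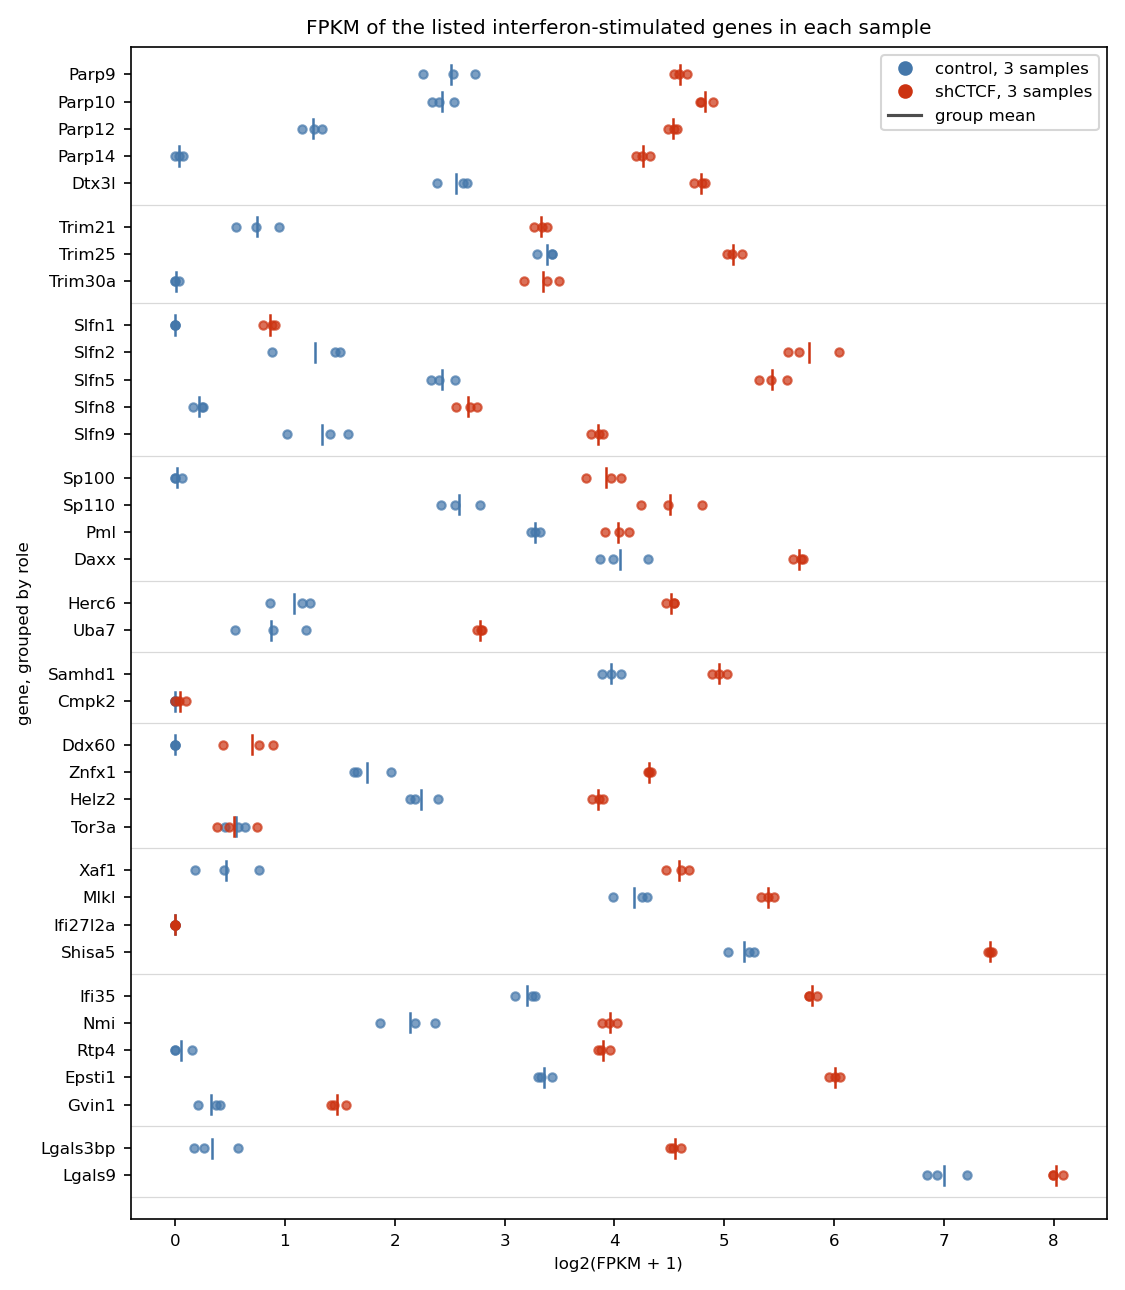
log2(FPKM + 1) of each member (y axis, grouped by role) in every sample, with control samples in blue, shCTCF samples in red and a vertical tick at each group mean. The groups overlap in Tor3a, Cmpk2 and Ifi27l2a and are apart in the other 33 members.

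The replicates lay close together. Summed over the 36 members, the FPKM was 277, 303 and 284 in controls 1, 2 and 3 and 1172.1, 1131.6 and 1125.1 in the shCTCF samples. Among members with a mean of at least 1 FPKM, the coefficient of variation after knockdown ran from 1.19% in Znfx1 to 20.2% in Sp110, with a median of 4.54%. In the controls it ran from 3.01% to 37.3%, with the highest value in Slfn2. shCTCF replicate 1 held the highest of the shCTCF values in 21 of 35 members, replicate 2 in 6 and replicate 3 in 8.

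The genes of ADP-ribosylation all rose. PARP enzymes attach ADP-ribose to proteins and nucleic acids. Parp14, a large enzyme with macrodomains, was near silence in the controls, at 0.0256, 0 and 0.0479 FPKM, and measured 19.1, 18 and 17.4 FPKM after knockdown. The groups were far apart, and the counts showed the same picture, with 3, 1 and 8 fragments in the controls and 1486, 1288 and 1564 after knockdown. The ratio of the pooled counts, scaled to TMM-normalized library sizes as all such ratios here, was 345 (exact 95% interval 197 to 667). The log2 fold change of Parp14 was 4.22 ± 0.10 (limma adjusted p 4.0e-08).

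Parp12, which mono-ADP-ribosylates proteins and restricts viral translation, had 1.53, 1.23 and 1.40 FPKM in the controls and 22.8, 22.3 and 21.5 FPKM in the shCTCF samples, a 16.0-fold ratio of means. Its groups were also well separated, and its log2 fold change was 3.28 ± 0.09 (limma adjusted p 8.9e-08). Parp9 and its partner Dtx3l, a ubiquitin ligase of the Deltex family, lie head to head on mm9 chromosome 16, where Parp14, Dtx3l and Parp9 follow each other within 140 kb (35832964 to 35972707). Parp9 went from 4.74 ± 0.93 to 23.2 ± 0.993 FPKM (SD, n = 3 per group) and Dtx3l from 4.89 ± 0.58 to 26.6 ± 1.02 FPKM. Their log2 fold changes, 2.09 ± 0.13 and 2.23 ± 0.10, were similar in size, while that of Parp14 beside them was 4.22. The exons of Parp9 and Dtx3l share 334 bases, and fragments from these bases could not be given to either of them in the counts. Parp10, another mono-ADP-ribosyl transferase, stood at 4.40 ± 0.392 and 27.3 ± 1.38 FPKM, a 6.21-fold ratio.

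All 3 TRIM members rose, from different starting levels. TRIM proteins are ubiquitin ligases, and many of them act on viral proteins or on the sensors of infection. Trim25, which ubiquitinates the RNA sensor RIG-I, had the highest level of the 3 in the controls, at 9.81, 9.80 and 8.82 FPKM, and measured 31.5, 34.8 and 32.6 FPKM after knockdown. Trim21, the cytosolic antibody receptor whose promoter is printed above, had 0.466, 0.664 and 0.926 FPKM in the controls and 9.45, 8.64 and 9.15 FPKM in the shCTCF samples. Trim30a, a rodent TRIM protein that dampens inflammatory signalling, was listed at 0, 0 and 0.023 FPKM in the controls and measured 10.3, 8.03 and 9.48 FPKM after knockdown. In none of the 3 did the groups overlap. The log2 fold changes were 1.70 ± 0.08 for Trim25, 2.59 ± 0.13 for Trim21 and 3.34 ± 0.12 for Trim30a, with limma adjusted p of 9.9e-07, 1.3e-06 and 3.3e-07. The ratio of means of Trim21 was 13.3. In counts Trim30a had no fragment in any control and 10, 12 and 18 after knockdown, which was at least 2.48-fold higher in CPM of the library total, with each control library set at the floor of 3 counts. Of the exon bases of Trim30a, 10.2% belonged to a single annotated transcript, and fragments on the others were left out of its counts. Trim30a also has close relatives beside it in the genome, so fragments from these copies may have been divided among them.

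The Schlafen genes held Slfn2, which had the highest log2 fold change of the members on the log2(FPKM + 1) scale. With a pseudocount of 0.01 the order changed, and Sp100 (9.67), Parp14 (9.37), Trim30a (9.28) and Rtp4 (9.24) exceeded Slfn2 (5.26). This family is known for restraint of T cell growth and for antiviral cleavage of tRNA, and in the mouse it forms a cluster on mm9 chromosome 11 from 82765604 to 83100228, within which the 9 annotated genes span 335 kb. Slfn2, which keeps T cells quiescent, had 0.838, 1.74 and 1.83 FPKM in the controls and 65.0, 50.3 and 46.9 FPKM after knockdown. No control came near any shCTCF sample, and the ratio of the means, 1.47 ± 0.547 and 54.1 ± 9.63 FPKM, was 36.9. Slfn2 rose by 4.49 ± 0.19 on the log2 scale (limma adjusted p 6.8e-07), and by 5.51 ± 0.22 in counts (edgeR adjusted p 8.4e-10).

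Slfn5, a long and mainly nuclear Schlafen protein, went from 4.40 ± 0.431 to 42.4 ± 3.94 FPKM (SD, n = 3), which was 9.65-fold. Slfn9 had 1.66, 1.03 and 1.98 FPKM in the controls and 13.9, 13.5 and 12.8 FPKM after knockdown, a log2 fold change of 2.51 ± 0.15. Slfn8 had 0.185, 0.117 and 0.195 FPKM in the controls and 4.88, 5.42 and 5.73 FPKM after knockdown, a log2 fold change of 2.44 ± 0.12. Slfn8 and Slfn9, the pair with the same promoter core, thus started from different levels, and their ratios of means on FPKM were 32.2 and 8.61. The counts did not show this contrast, with log2 fold changes in edgeR of 2.79 ± 0.46 for Slfn8 and 3.18 ± 0.12 for Slfn9. The ratio of the pooled counts of Slfn8 was 7.15 (exact 95% interval 3.4 to 17.3). Of the exon bases of Slfn8, 23.1% belonged to a single annotated transcript, and fragments on the others were left out of its counts. In Slfn9 this share was 100%. Slfn8 and Slfn9 are also similar in sequence, and the division of fragments between them is uncertain. Slfn1 was listed at 0 FPKM in every control and at 0.747, 0.876 and 0.846 FPKM after knockdown. Its counts were 0 in each control and 14, 17 and 24 after knockdown, at least 3.42-fold higher against the same floor (edgeR adjusted p 3.8e-05).

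The neighbours of these genes in the cluster did not share the size of the change. Slfn3 went from 5.86 ± 0.114 to 8.71 ± 0.363 FPKM, a log2 fold change of 0.50 ± 0.08 (limma adjusted p 0.0008), and the pseudogene Slfn10-ps had 1.02 ± 0.10. Slfn4 was listed at 0 FPKM in the controls and at no more than 0.161 FPKM after knockdown, and Slfn14 was listed at 0 FPKM in all samples.

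The proteins of nuclear bodies rose to unequal degrees. PML bodies are nuclear structures in which PML and SP100 restrict viral genomes. Sp100 was listed at 0, 0 and 0.0434 FPKM in the controls and measured 15.7, 12.4 and 14.7 FPKM after knockdown, so it was close to silent in all controls and expressed in all shCTCF samples. Its counts, 4 fragments in all controls and 577 in all shCTCF samples, gave a ratio of 137 (exact 95% interval 53.4 to 506). Pml itself, in contrast, had the smallest log2 fold change of the members tested. It measured 8.67, 8.98 and 8.46 FPKM in the controls and 15.5, 16.5 and 14.1 FPKM after knockdown. These groups did not overlap either, but the log2 fold change was only 0.75 ± 0.09 (limma adjusted p 0.00011). Sp110, a relative of Sp100 from the same 133 kb of mm9 chromosome 1, went from 5.02 ± 0.76 to 22.1 ± 4.45 FPKM, and Sp140 between them, which is not a member, from 2.13 ± 0.753 to 16.3 ± 0.994 FPKM. Daxx, a chaperone of histone H3.3 that resides in PML bodies, went from 15.8 ± 2.66 to 50.4 ± 1.71 FPKM, a log2 fold change of 1.63 ± 0.11.

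Both genes of ISG15 conjugation rose. ISG15 is a ubiquitin-like protein, UBA7 activates it, and HERC6 is the main ligase that attaches it in the mouse. Herc6 had 1.34, 0.821 and 1.23 FPKM in the controls and 21.1, 22.3 and 22.3 FPKM in the shCTCF samples, a 19.4-fold ratio of means with no overlap (log2 fold change 3.43 ± 0.12, limma adjusted p 2.2e-07). Uba7 had 0.852, 0.457 and 1.29 FPKM in the controls and 5.91, 5.73 and 5.94 FPKM after knockdown. Its controls were spread widely and its shCTCF samples were nearly equal, without overlap, the ratio of means was 6.76, and the log2 fold change was 1.90 ± 0.17 (limma adjusted p 2.7e-05).

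The genes of nucleotide supply differed from each other. Samhd1, a triphosphatase that lowers the pool of deoxynucleotides available to retroviruses, was well expressed in the controls, at 15.7, 13.8 and 14.7 FPKM, and measured 31.5, 28.6 and 29.9 FPKM after knockdown. The ratio was 2.04 and the log2 fold change 0.98 ± 0.08 (limma adjusted p 1.6e-05). Cmpk2, a mitochondrial nucleotide kinase and a strong interferon target in many cells, was hardly detected. It was listed at 0 FPKM in the controls and at 0, 0.0693 and 0.0279 FPKM after knockdown, and its counts were 0 in each control and 1, 2 and 1 after knockdown. All of these lie under the floor of 3 counts, and a change of Cmpk2 was not detectable at this depth.

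Among the helicases and ATPases, Ddx60 was switched from no detected fragment to a low level. Ddx60, a helicase that assists RIG-I, had 0 counts in each control and 61, 29 and 57 after knockdown, at least 9.1-fold higher against the floor of 3 counts per control library (edgeR adjusted p 6.0e-06). In FPKM it was listed at 0 in the controls and at 0.86, 0.35 and 0.698 after knockdown. The promoter with the pair of GAAACCGAAA cores therefore belonged to a gene whose level after knockdown stayed under 1 FPKM. Znfx1, a helicase that binds viral RNA at mitochondria, went from 2.39 ± 0.45 to 19.0 ± 0.225 FPKM, a 7.94-fold ratio. Helz2, a coactivator of nuclear receptors with helicase domains, went from 3.73 ± 0.453 to 13.4 ± 0.492 FPKM, a 3.59-fold ratio. Tor3a, a torsin ATPase of the endoplasmic reticulum, was the member with the clearest overlap. It measured 0.483, 0.553 and 0.372 FPKM in the controls and 0.68, 0.406 and 0.299 FPKM after knockdown. Tor3a was also not called in counts, where its log2 fold change was 0.54 ± 0.29 (edgeR adjusted p 0.124).

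Of the genes tied to cell death, Xaf1 changed most. XAF1 antagonises the apoptosis inhibitor XIAP. Xaf1 had 0.358, 0.695 and 0.134 FPKM in the controls and 24.6, 23.4 and 21.2 FPKM after knockdown. The groups were far apart, with a 58.3-fold ratio of means and a log2 fold change of 4.12 ± 0.15 (limma adjusted p 3.6e-07). Shisa5, an endoplasmic reticulum protein induced by p53 and interferon, was expressed in the controls at 36.5, 31.7 and 37.6 FPKM and measured 173, 170 and 168 FPKM after knockdown, a 4.83-fold ratio. Mlkl, the executor of necroptosis, went from 17.2 ± 1.98 to 41.2 ± 1.56 FPKM, a log2 fold change of 1.22 ± 0.09. Ifi27l2a, a small mitochondrial interferon target, was listed at 0 FPKM in all 6 samples, although the count table held 7, 0 and 4 fragments in the shCTCF samples and none in the controls. It shares 103 exon bases with Ifi27. The tables thus did not give the same account of Ifi27l2a, and no change is claimed for it.

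The adaptors and further members all rose. Ifi35 and Nmi, proteins that form a complex with each other, went from 8.23 ± 0.629 to 54.6 ± 1.54 FPKM and from 3.46 ± 0.771 to 14.5 ± 0.745 FPKM, with log2 fold changes of 2.59 ± 0.08 and 1.82 ± 0.14. Epsti1, an interferon target first described in breast stroma, went from 9.24 ± 0.475 to 63.3 ± 2.12 FPKM, a 6.85-fold ratio. Rtp4, a protein that escorts receptors to the cell surface, was close to silent in the controls. It was listed at 0, 0 and 0.11 FPKM there and measured 13.4, 13.7 and 14.6 FPKM after knockdown, and its counts, 2 in all controls and 698 in all shCTCF samples, had a ratio of 333 (exact 95% interval 91.7 to 2752.2). Gvin1, a very large inducible GTPase, stayed low, at 0.260 ± 0.0912 and 1.78 ± 0.146 FPKM, a 6.83-fold ratio. Nearly all of its exon bases, 18072 of 18078, are also annotated as Gm4070, and its level is uncertain for that reason.

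The galectin and the galectin-binding protein stood at opposite ends. Lgals9, a secreted lectin with immune functions, was the member with the highest level in the controls. It measured 114, 147 and 122 FPKM there and 270, 254 and 254 FPKM after knockdown, a 2.03-fold ratio (log2 fold change 1.02 ± 0.09, limma adjusted p 3.3e-05). Lgals3bp, the secreted partner of galectin-3, was low in the controls at 0.127, 0.492 and 0.197 FPKM and measured 23.3, 22.2 and 21.8 FPKM after knockdown. Its ratio of means, 82.4, was the highest among the members with each control above 0 FPKM, which leaves out Parp14, Trim30a, Sp100 and Rtp4, and the counts gave 95 (exact 95% interval 58.3 to 167). Among those members that rose, the ratio of means thus ran from 1.76 in Pml, 2.03 in Lgals9 and 2.04 in Samhd1 to 58.3 in Xaf1 and 82.4 in Lgals3bp.

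By level in the controls, 7 members were silent there, with each control under 0.1 FPKM (Parp14, Trim30a, Slfn1, Sp100, Cmpk2, Ddx60 and Ifi27l2a). Of these, Parp14, Sp100 and Trim30a reached at least 8.03 FPKM in each shCTCF sample, Slfn1 and Ddx60 stayed under 1 FPKM, and Cmpk2 and Ifi27l2a were at or close to 0. A further 8 were low, with a control mean under 1 FPKM, and 21 had a basal level of at least 1 FPKM. Silence in the controls therefore did not go with a single level after knockdown.

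The counts gave a further measure from the same libraries, so they do not add replicates. Of 23 members that could be tested on counts with edgeR, 22 were higher, each by at least 2-fold, and only Tor3a was not called. Across all 7341 genes tested 34.8% were higher, 34.3% were lower, and 18.7% were higher by at least 2-fold. Members close to 0 counts in the controls, such as Parp14, Trim30a, Slfn1, Sp100, Ddx60, Rtp4 and Xaf1, entered this test through their counts after knockdown. Of the 12 tested members with a basal level, all 12 were higher. The median log2 fold change in counts of the 12 basal members tested was 3.08, compared with -0.02 over all genes. For 20 members tested on both tables, the median absolute difference between the log2 fold changes was 0.66, and it was 0.47 over the 12 with a basal level. The widest gap, 4.29, was that of Rtp4, which was near 0 in the controls.

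The 13 members not tested on counts were mostly not low in FPKM. In the count table, fragments shared by exons of several transcript accessions were dropped, and in Pml and Gvin1 no exon base belonged to a single accession. This share was 1.18% in Mlkl, 2.47% in Trim21, 2.92% in Nmi, 3.06% in Parp10, 3.07% in Samhd1, 4.47% in Sp110, 5.86% in Lgals9 and 6.85% in Daxx. Parp10, Trim21, Pml and Gvin1 had 0 counts in all samples. For these genes, and for Shisa5 with 18.2%, the rise rests on FPKM alone. The few counts of Shisa5, 12 in all controls and 9 in all shCTCF samples, had a ratio of 0.715 (exact 95% interval 0.266 to 1.85), and those of Daxx, 3 and 2, had a ratio of 0.635 (0.0531 to 5.55). Both intervals include no change and neither shows the rise. That of Daxx includes its FPKM ratio of 3.2, whereas that of Shisa5 ends below its FPKM ratio of 4.83. Counts and FPKM thus disagree on Shisa5.

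**Figure D3:**
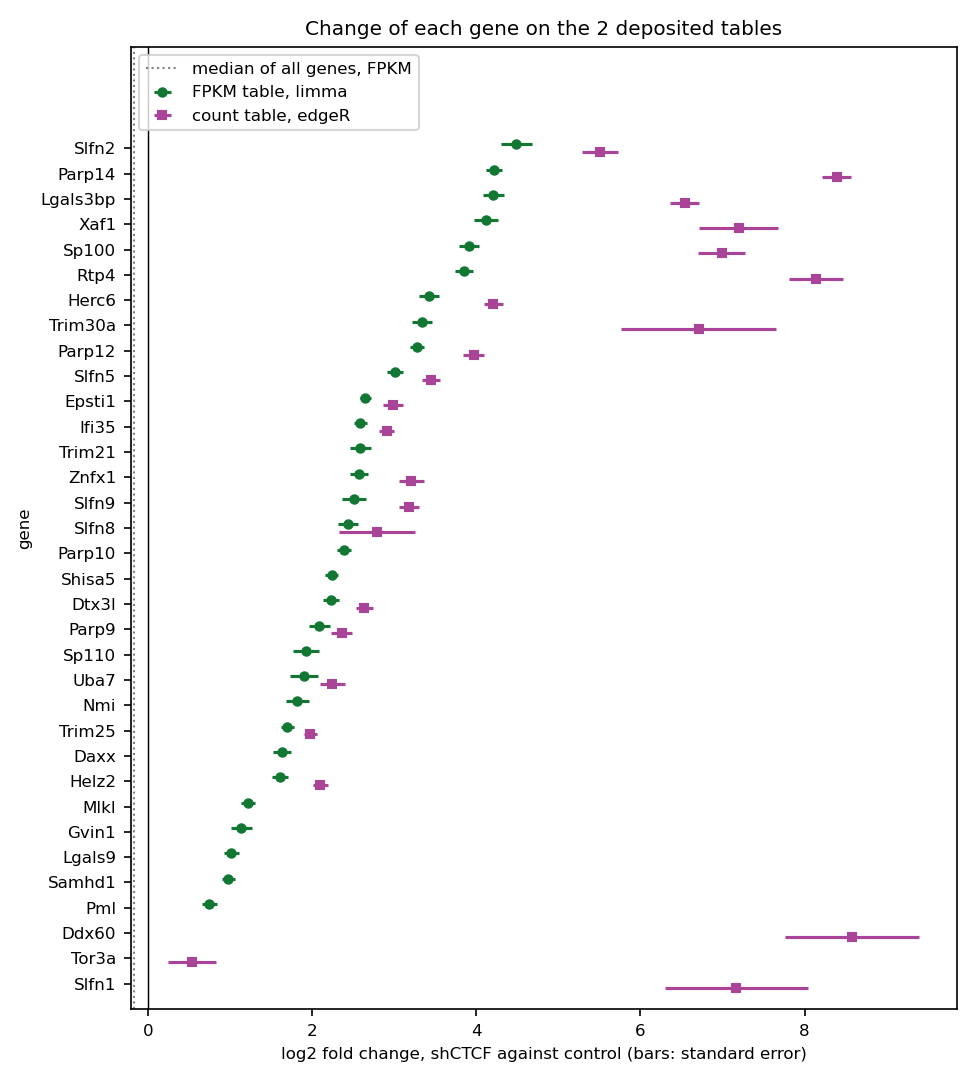
log2 fold change of each member, shCTCF against control (x axis, bars show the standard error), from FPKM with limma (green circles) and from counts with edgeR (purple squares). Members without a green circle were too low for the FPKM test, and the dotted line at -0.17 is the median of all genes on FPKM.

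To ask how far the change reached into the families of these members, 100 relatives that are not members were listed. Of 58 relatives tested on FPKM, 30 were higher, 16 were lower and 12 did not pass, with a median log2 fold change of 0.35, beside 28.8% higher and 44.2% lower and a median of -0.17 over all genes. The PARP relatives were divided, with 4 of 11 higher and 4 lower. With samples scaled to the same median this became 5 higher and 3 lower. Parp16, an enzyme of the endoplasmic reticulum, fell by 2.27 on the log2 scale, and Parp1 and Parp2, the DNA damage sensors, fell by 1.40 and 1.19. Parp1 had 57.7, 68.8 and 55.4 FPKM in the controls and 21.6, 21.6 and 23.8 FPKM after knockdown, the opposite direction to the PARP members. Parp3, Tiparp and Parp11 rose by 1.34, 1.28 and 1.05, less than any of the PARP members.

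Of 31 TRIM relatives tested, 16 were higher and 8 were lower. With samples scaled to the same median 17 were higher and 6 were lower. Trim63, Trim71, Trim69 and Trim2, under 1 FPKM in the controls, entered the test only through their level after knockdown. Trim26, Trim63 and Trim71 rose most, by 2.37, 2.17 and 1.68. Trim59, Trim44 and Trim28 fell by 1.62, 1.61 and 1.5, and in Trim59 the controls ranged from 12.4 to 32 FPKM. Trim28, the corepressor KAP1 of retroelement silencing, had 124, 144 and 116 FPKM in the controls and 42.0, 46.0 and 44.9 FPKM after knockdown, with no overlap. Among the Deltex relatives Dtx4 and Dtx2 rose by 2.38 and 1.08, and Dtx3 fell by 0.50. Both Schlafen relatives tested, described above, were higher. Of 11 other relatives 6 were higher and 3 were lower, and with samples scaled to the same median 7 were higher and 2 were lower. Sp140, Ifi27 and Lgals3 rose most, by 2.49, 2.47 and 1.98. Herc1, Herc2 and Tor1a had log2 fold changes of -0.61, -0.45 and -0.36, and that of Tor1a did not pass with samples scaled to the same median (-0.19, limma adjusted p 0.0756). The GAAA pair occurred for 9 of 77 relatives with a promoter (11.7%).

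**Figure D4:**
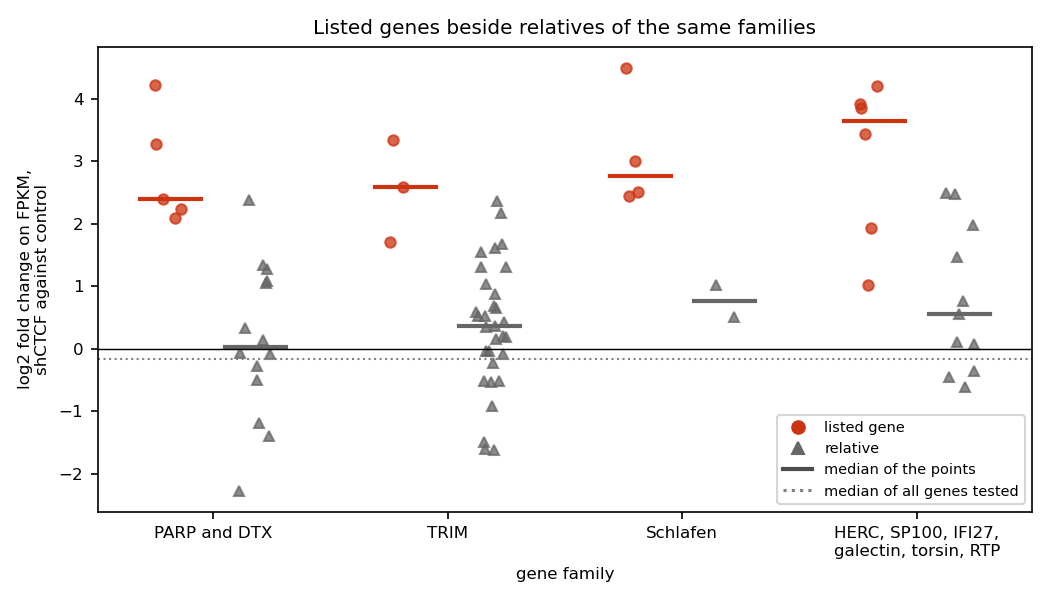
log2 fold change on FPKM (y axis) of members and of listed relatives in 4 family groups (x axis), 1 point per gene tested. Horizontal bars are the medians of the points and the dotted line is the median of all genes, -0.17. Members (red) lie above 0 in each group, while relatives (grey), other than the 2 Schlafen genes, lie on both sides of 0, between -2.27 and 2.49. Genes under 1 FPKM in the controls entered only through their level after knockdown. Among members these are Parp14, Trim21, Trim30a, Slfn8, Sp100, Rtp4 and Lgals3bp. The members Slfn1, Tor3a and Ifi27l2a were too low to be tested and are not shown.

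The pathway that acts on these genes was read from 43 listed genes. No interferon transcript was detected, since all 19 ligand genes listed were at 0 FPKM and 0 counts in all 6 samples. In the deepest library 3 counts corresponded to 0.426 CPM, and lower levels could not be seen. Of the 22 pathway genes tested on FPKM, 16 were higher, 3 were lower and 3 did not pass. Over all genes tested 28.8% were higher and 44.2% were lower, to be read beside these counts and those of each list below. Irf7 and Usp18, under 1 FPKM in the controls, entered the test through their level after knockdown.

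Of the receptors and kinases, 5 of 8 tested were higher, and 6 of 8 with samples scaled to the same median. Ifngr2, the signalling chain of the interferon gamma receptor, measured 15.7, 18.5 and 16.6 FPKM in the controls and 89.5, 84.9 and 79.6 FPKM after knockdown. Its groups were far apart, with a log2 fold change of 2.26 ± 0.08 (limma adjusted p 3.4e-07). Jak2 and Il10rb rose by 1.77 and 0.72, and Ifngr1, the binding chain for interferon gamma, fell by 0.66. Ifnar1, the signalling chain for type I interferon, and its kinase Tyk2 did not pass, with 0.06 ± 0.08 and 0.00 ± 0.10 (limma adjusted p 0.558 and 0.978), whereas Ifnar1 in counts had 0.23 (edgeR adjusted p 0.0216).

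Of the 8 transcription factors tested, 7 were higher and 1 was lower. Irf7, which amplifies the interferon response, had 0.36, 0.615 and 0.654 FPKM in the controls and 50.9, 49.5 and 47.3 FPKM after knockdown. Its groups were far apart, with a 90.7-fold ratio of means and a log2 fold change of 5.03 ± 0.10 (limma adjusted p 2.2e-08). Irf1 and Stat2 rose by 3.52 and 3.20. Irf9, the DNA-binding partner of STAT proteins, rose by 1.41. Irf3, which acts before any interferon is made, fell by 0.95, from 21.1 ± 3.35 to 10.4 ± 0.89 FPKM.

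Of the 6 feedback inhibitors, 4 were higher and 1 was lower. With samples scaled to the same median 5 were higher and 1 was lower. Usp18, which removes ISG15 and blocks the type I receptor, was listed at 0.472, 0 and 0.589 FPKM in the controls and measured 104, 96.8 and 93.9 FPKM after knockdown. It was near silent in each control and above all members but Lgals9 and Shisa5 in each shCTCF sample. Socs3 and Socs1 rose by 3.64 and 1.23. Ptpn6, a phosphatase that acts on JAK kinases, fell by 0.67 on FPKM, while its counts did not pass (-0.28, edgeR adjusted p 0.296).

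**Figure D5:**
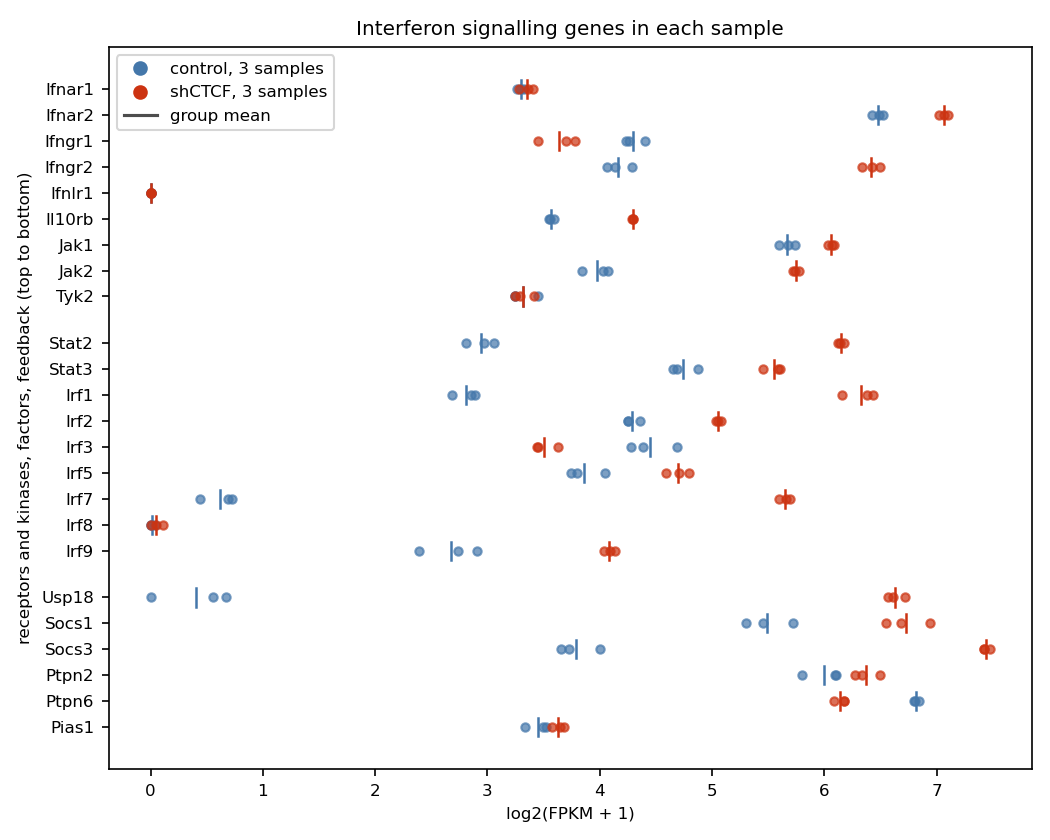
log2(FPKM + 1) of the interferon signalling genes in every sample, with control samples in blue, shCTCF samples in red and ticks at the group means. Usp18 and Irf7 show the widest gaps between the groups, and Tyk2 and Ifnar1 overlap.

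The labelled cell type was checked against its markers. Of 10 germline markers, Dppa3, Gfra1 and Nanos3 were listed at 0 FPKM in all samples, and Ddx4, Dazl and Pou5f1 were at 0 FPKM in each control and at no more than 0.182 FPKM after knockdown. The summed germline level, 18.3 to 19.8 FPKM in the controls and 15.4 to 15.9 FPKM after knockdown, was nearly all Etv5. The defining germline genes named above were thus at or near 0 in these libraries. In contrast, the paper reported Mvh (Ddx4), Oct4 (Pou5f1), Stella (Dppa3), Dazl, Gfra1 and Fragilis by RT-PCR in its cultured FGSCs. It also reported MVH protein by immunofluorescence. Fragilis was not among the markers listed here. Of 12 mast cell markers listed, 11 had an expression value and Mcpt5 had none. In the controls 5 had at least 1 FPKM, and 6 did after knockdown. The sum of the list was 1329.6 to 1383.9 FPKM in the controls and 1500.4 to 1568.6 FPKM after knockdown. Kit, Gata2 and Cpa3 made up most of it in the controls, while Fcer1a and Mrgprb1 were at 0. Within this list Cpa3 fell from 281 ± 56.7 to 88 ± 13.1 FPKM and Hdc rose from 4.25 ± 0.219 to 87.2 ± 7.58 FPKM (SD, n = 3). The sum of 12 macrophage markers was 103 to 113 and 204 to 239 FPKM, mostly Adgre1 and Cd68, with C1qa and C1qb at 0. In 8 of the 12 all shCTCF samples were above all controls, and in 1, Csf1r, all were below. The first pattern held for 17.3% of all gene symbols and 30.8% of the genes tested. Among the 8, Cd14, Itgam, C1qc, Mrc1 and Marco stayed under 1 FPKM in every sample. Csf1r was low, at 0.14 ± 0.0495 FPKM in the controls and 0.0689 ± 0.0167 FPKM after knockdown. Itgam had means of 0.0836 and 0.121 FPKM. Cd68 rose from 44.7 ± 4.66 to 137 ± 7.64 FPKM, while Fcgr1 did not pass (log2 fold change -0.03, limma adjusted p 0.8). The sum of 12 feeder fibroblast markers was 10.3 to 10.9 and 23.5 to 24.7 FPKM, with Col3a1 and Lum at 0. In this list Col6a1 rose from 0.144 to 15.3 FPKM, whereas Dcn and Pdgfrb fell by 1.89 and 1.16 on the log2 scale. The summed levels of the T and NK cell, B cell, dendritic and granulosa cell lists were at most 1.42, 0.487, 7.55 and 0.76 FPKM in any sample. The mast cell, macrophage, dendritic and fibroblast sums were higher after knockdown, as the members were. Genes moved in the opposite direction in the mast cell, macrophage and fibroblast lists. The part of these cell types in the result was not tested. In bulk RNA, a change in the number of cells of a type and a change in the RNA of each cell cannot be told apart.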

How the data were processed

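RNA-seq of 3 control and 3 shCTCF samples of FGSCs was used, with groups taken from the labels. As deposited, the counts are whole fragments per RefSeq accession, which the authors obtained with featureCounts 1.6.2 without strand or normalization. A fragment on more than 1 accession was left unassigned. The deposited FPKM values were calculated by the authors with Cufflinks 2.2.1 and normalized for depth, after alignment to mm9 with HISAT2 (version 4.8.2 per the submitters' processing notes).

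Accessions were given symbols with a RefSeq table of GRCm38.p6 (41186 of 41388 count rows, 41685 of 41876 FPKM rows), and values were summed per symbol. Gene positions are those of mm9. Promoter positions are those of GRCm38. Genes whose mean over the samples reached 1 FPKM were tested on log2(FPKM + 1) with limma 3.58.1 (eBayes with trend), and counts with edgeR 4.0.16 (quasi-likelihood, TMM, filterByExpr) in R 4.3.3. Two-sided p-values were adjusted by Benjamini-Hochberg over all genes tested, with a threshold of 0.05. Both fits were tested on simulated data. Total counts ranged from 1686052 to 7044272. Ratios of pooled counts carry exact 95% intervals. Alternatives were other pseudocounts, filters, scalings and sums, limma without the trend, DESeq2 1.42.0, a replicate block and the omission of each replicate.

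Named genes were every member, Ctcf, and in each list up to 3 that rose most and up to 3 that fell most. Irf9, Ifnar1, Tyk2, Slfn4, Slfn14 and single markers were named after their values were seen. A further pathway gene is not reported here. The members and lists were chosen with earlier results of these data known.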

Additional observations from a re-analysis of the deposited data

How the results depend on the processing

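No member was called lower under any setting tried, although the few counts of Daxx and Shisa5, which did not pass the count filter, had ratios of 0.635 and 0.715. On FPKM the number higher was 31 with pseudocounts of 0.1 and 0.01, without the variance trend, and with median or quantile scaling. It was 30 with the highest row per gene, 26 with a mean of at least 5 FPKM, 33 of 35 without a filter, and 30 to 31 when a replicate was left out. Limited to a control mean of at least 1 FPKM, an alternative chosen after seeing the data, it was 21 of 21. On counts it was 22 of 23 with edgeR and 22 with DESeq2, 17 with a mean of at least 5 FPKM, and 21 to 22 when a replicate was left out. Over all genes, scaling shifted the median change (log2) from -0.17 to -0.01 on FPKM with median scaling, and from -0.02 to -0.19 in counts with library size only. Samples with the same replicate number showed no shared deviations, with correlations of -0.0410, 0.0180 and 0.0395 over 9976 genes. Whether the samples were prepared in pairs cannot be told from these values. With the replicate block 31 members were higher on FPKM and 22 in counts, and Ctcf had -5.12 on FPKM. Ctcf had -6.44 with a pseudocount of 0.01, and -5.16 to -5.08 when a replicate was left out. With samples scaled to the same median, 33 of 58 relatives were higher and 12 lower, and 18 of 22 pathway genes were higher and 3 lower. Fewer list genes could be tested in counts, where relatives higher fell from 30 to 16, pathway genes higher from 16 to 10 and pathway genes lower from 3 to 1. With silence set at under 0.5 FPKM, 11 members were silent instead of 7, and with the longer motif 5 members matched instead of 8.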
